A study of Homo sapiens with 6 samples.

Results

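The microRNA genes on the array were compared between U-87 glioma cells in which P68 was knocked down and cells labelled P68 wild type. They were chosen by name: probe sets with a single gene symbol that began with MIRLET, or with MIR and a digit, without host gene transcripts (symbols ending in HG) and antisense transcripts. This rule gave 173 genes of 18417, each with 1 probe set. A further 32 probe sets named a microRNA gene together with another gene and were left out. MicroRNAs are cut from long primary transcripts stepwise. In the nucleus the Drosha and DGCR8 complex releases a hairpin from the primary transcript, and in the cytoplasm Dicer cuts the hairpin to the mature strand, which guides Argonaute proteins to target messages through its seed, bases 2 to 8. P68, encoded by DDX5, is an RNA helicase that binds the Drosha complex, and its loss has been described to slow the first cut for some primary transcripts.

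The U-87 line was established from a human glioma. Per the labels, cells received siP68, an siRNA to P68, or a second reagent given as NC; which of the samples received NC is not stated. Total RNA of 3 knockdown and 3 wild-type samples was hybridised to 6 Affymetrix gene-level arrays, and the values are log2 signals. A probe set of these arrays reads the hairpin region, and its signal can come from the primary transcript as well as from the hairpin, so the values are not levels of mature microRNA. The labels do not say whether replicates are separate cultures, so the p-values cover the scatter of these 6 arrays alone, and this scatter may be technical. In RNA pooled from many cells, fewer cells with a transcript and less of it per cell cannot be told apart.

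The mature sequences of the microRNAs described most closely are given first, because a shared seed decides which of them act as 1 family. Sequences and positions are those of RefSeq on GRCh38.p14, where 155 of the 173 genes had a hairpin entry, and the seed is in capitals. The first 3 share the let-7 seed, the next 2 the miR-30 seed, and the last 4 have seeds of their own among those shown.
let-7g-5p: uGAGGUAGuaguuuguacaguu
let-7i-5p: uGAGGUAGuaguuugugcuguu
let-7d-5p: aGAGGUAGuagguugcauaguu
miR-30e-5p: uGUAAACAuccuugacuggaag
miR-30c-5p: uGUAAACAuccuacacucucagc
miR-326: cCUCUGGGcccuuccuccag
miR-191-5p: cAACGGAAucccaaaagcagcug
miR-375-3p: uUUGUUCGuucggcucgcguga
miR-16-5p: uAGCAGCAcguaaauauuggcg
The hairpins of these genes lie at chr3:52268278-52268361 on the minus strand (MIRLET7G), chr12:62603686-62603769 on the plus strand (MIRLET7I), chr9:94178834-94178920 on the plus strand (MIRLET7D) and chr1:40754355-40754446 on the plus strand (MIR30E). The MIR30C1 hairpin lies at chr1:40757284-40757372 on the plus strand, MIR326 at chr11:75335092-75335186 on the minus strand and MIR191 at chr3:49020618-49020709 on the minus strand. MIR375 lies at chr2:219001645-219001708 and MIR16-1 at chr13:50048973-50049061, both on the minus strand.

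DDX5, the targeted gene, gave log2 signals of 9.47, 9.79 and 9.91 on the knockdown arrays and 10.09, 10.25 and 10.30 on the wild-type arrays. All 3 knockdown values lay below all wild-type values, at 71.2% of the wild-type signal (95% confidence interval 58.4% to 86.9%). The log2 difference of -0.49 ± 0.13 (SE) had an adjusted p of 0.902 in limma over all 18417 genes, and no gene of the series passed the threshold of 0.05. The array medians over all probe sets lay between 4.32 and 4.37. Of 8 markers fixed for a glioma line or astroglia, 3 lay at or below a silent reference, the 95th percentile of the mean signals of 341 olfactory receptor genes, which is 4.72. One of them was the surface receptor CD44, at 3.48 to 3.80 over the 6 arrays, although U-87 cells are known to express it. The cause was not tested, and the line's identity rests on the labels. AQP4 and S100B were the others, while the filament protein vimentin (VIM) gave 7.25 to 7.94. The mean signal of 4 neuronal markers was 4.76 to 4.89 in the knockdown and 4.65 to 4.67 in the wild type without overlap. By log2 difference STMN2 (0.32), SYT1 (0.20) and RBFOX3 (0.18) were higher in the knockdown, and SNAP25 (-0.09) was lower. STMN2 and SYT1, 2 of the 4, lay at or below the reference. The part of this marker difference in the microRNA values was not tested. The means of 3 oligodendrocyte markers (4.21 to 4.27 against 4.13 to 4.22), 4 microglia and leukocyte markers (3.33 to 3.38 against 3.16 to 3.37) and 3 endothelial markers (4.17 to 4.21 against 4.10 to 4.24) overlapped, and all of these markers lay at or below the reference. Single markers outside the neuronal list also differed without overlap. CD14 of the leukocyte list (0.42) and AQP4 (0.37) were higher in the knockdown, and FN1 of the glioma list (-0.21) was lower. The largest marker difference was that of SPARC in the glioma list, at -0.46 with overlapping groups.

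Most microRNA genes gave slightly higher signals on the knockdown arrays, and none passed the test. Of the 173 genes, 117 had a difference above 0, 53 below 0 and 3 at 0. This is 67.6%, beside 52.5% of all genes and 61.6% of the olfactory receptor genes. The median log2 difference was 0.05, beside 0.01 over all genes and 0.04 over the olfactory receptor genes. In limma 0 microRNA genes had an adjusted p under 0.05, where 0% of all genes did, and the smallest adjusted p was 0.902. An unadjusted p under 0.05 was found for 17 of them, or 9.83%, beside 5.09% of all genes. Of these, 14 were higher (8.09% beside 3.02% of all genes) and 3 lower (1.73% beside 2.06%). The groups did not overlap for 26 microRNA genes, or 15.0%, beside 10.1% of all genes. All 3 knockdown arrays lay above all wild-type arrays for 20 of them, or 11.6%, beside 5.98% of all genes and 7.92% of the olfactory receptor genes. They lay below for 6, or 3.47%, beside 4.15% of all genes.

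**Figure D1:**
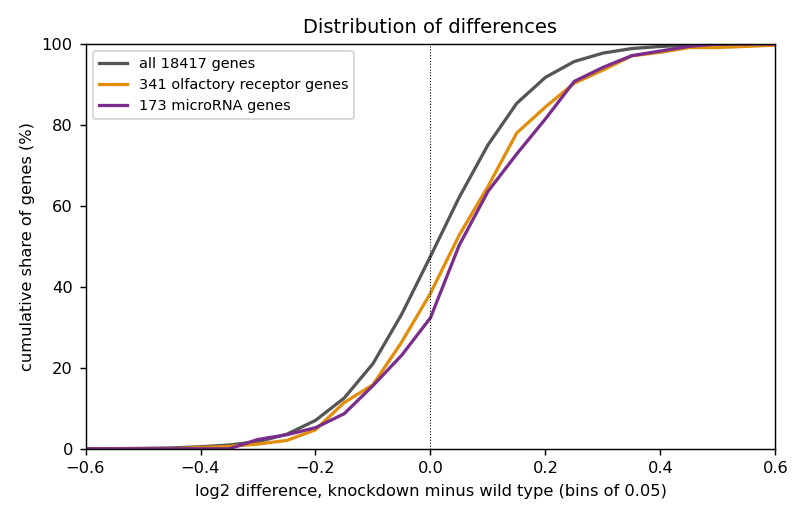
Cumulative share of genes (vertical axis, percent) by log2 difference, knockdown minus wild type (horizontal axis), for all 18417 genes, 341 olfactory receptor genes and 173 microRNA genes. The microRNA and olfactory receptor curves lie to the right of the curve of all genes around 0, with medians of 0.05, 0.04 and 0.01 for the microRNA, olfactory receptor and all genes.

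The differences were small in size. Of the 173 genes, 147 differed by under 0.25 on the log2 scale, and none reached 0.50. The largest, for MIR375, came to 1.38-fold. The median standard error was 0.12 for both the microRNA genes and all genes. The share of microRNA genes above 0 was 65.3% without knockdown replicate 2 (50.5% of all genes) and 60.7% without wild-type replicate 3 (52.5% of all genes). With each array centred on its median it was 64.2% (48.3% of all genes).

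Most microRNA probe sets were dim. Only 38 of the 173 (22.0%) had a mean signal above the silent reference, beside 48.9% of all genes, and signal of the other 135 cannot be told from background here. The signal followed the base composition of the hairpin. Over the 155 genes with a hairpin sequence, which was 63 to 119 bases long, the share of G and C ran from 28.8% to 73.6%, and it correlated across genes with the mean signal (Pearson r = 0.75, Spearman rho = 0.74). The median share was 60.3% for the 35 of them above the reference and 47.0% for the 120 at or below it. The reference was not matched for base composition, so a signal above it does not by itself show expression. Signals of different probe sets are therefore not set against each other as RNA levels.

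Single arrays also differed by base composition. The deviation of knockdown replicate 2 from each gene's mean over the 6 arrays correlated across the 155 genes with the share of G and C (r = 0.46), that of knockdown replicate 1 in the other direction (r = -0.24), and that of wild-type replicate 2 likewise (r = -0.30). For the other three arrays r was 0.09 (knockdown replicate 3), -0.08 (wild-type replicate 1) and 0.03 (wild-type replicate 3). Genes are not independent replicates, and all points of an array share its RNA and hybridisation. Knockdown replicate 2 was the highest array for 56 microRNA genes, and wild-type replicate 3 for 8. Over the 38 genes above the reference, the median deviation was 0.21 for knockdown replicate 2 and -0.09 for wild-type replicate 2, and between -0.06 and 0.01 for the other arrays. The 78 genes with the higher share of G and C had a median log2 difference of 0.08 (60 above 0, 17 below), and the 77 with the lower share one of 0.03 (48 above 0, 27 below). How far base composition carries the differences was not tested.

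**Figure D2:**
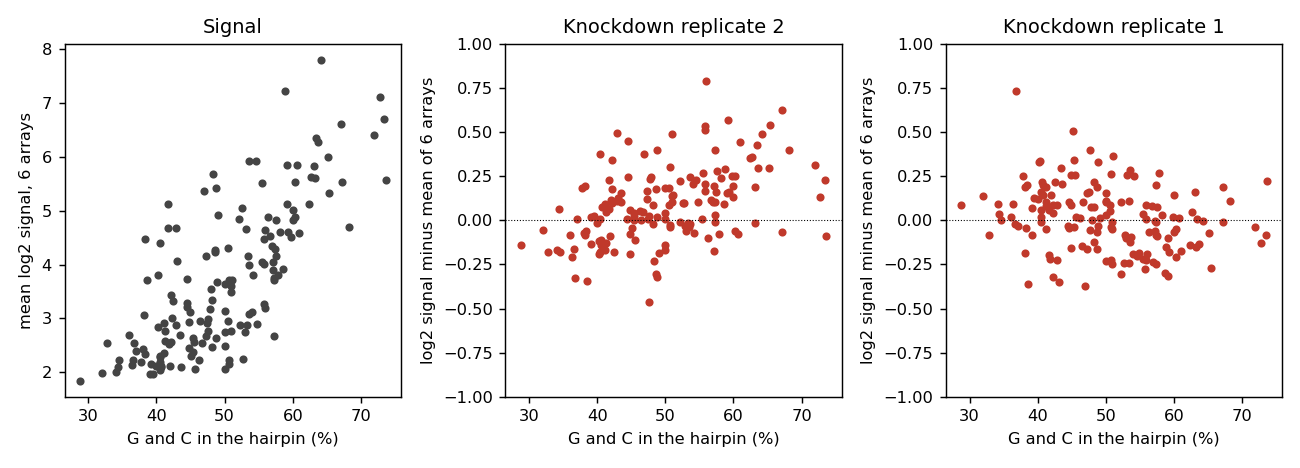
Share of G and C in the hairpin (horizontal axes, percent) against the mean log2 signal of 155 microRNA genes (left), and against the log2 signal of knockdown replicate 2 (middle) and knockdown replicate 1 (right) minus each gene's mean over the 6 arrays. Points are genes, the signal climbs with G and C (r = 0.75), and the 2 knockdown arrays lean opposite ways (r = 0.46 and r = -0.24).

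Among the 38 genes above the reference, 29 had a difference above 0, 8 below and 1 at 0. MIR326, a microRNA described to restrain glioma growth, was the clearest of them. It gave 7.80, 8.29 and 7.95 in the knockdown against 7.66, 7.50 and 7.61 in the wild type, with no overlap. On the log2 scale it differed by 0.42 ± 0.13 (SE), which is 134% of the wild-type signal (95% confidence interval 109% to 164%), and by 0.29 without knockdown replicate 2. MIR375, best known from pancreatic islets, gave 5.53, 6.16 and 5.62 against 5.33, 4.90 and 5.68. Its difference of 0.47 ± 0.21 (SE) was the largest of all microRNA genes, but the groups overlapped through wild-type replicate 3. It was 0.27 without knockdown replicate 2 and also without wild-type replicate 2.

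MIR320A gave 6.45, 6.48 and 6.58 in the knockdown and 6.37, 6.18 and 6.21 in the wild type. The groups did not overlap, and the difference was 0.25 ± 0.10 (SE), or 0.21 at least with any 1 array left out. MIR187 gave 5.92, 6.29 and 6.10 against 5.84, 5.91 and 5.90, a gap of 0.01 between its nearest arrays. Its difference of 0.22 ± 0.11 (SE) became 0.13 without knockdown replicate 2. MIR326, MIR320A and MIR187 were the 3 genes above the reference without overlap, 7.89% of the 38 (10.8% of all genes above the reference), and all lay higher in the knockdown.

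Other genes above the reference had larger differences than MIR187 but overlapping groups. MIR185 gave 6.35, 6.77 and 6.41 against 6.38, 6.12 and 6.03, a difference of 0.33 ± 0.14 (SE) that was 0.20 without knockdown replicate 2. MIR149 gave 6.37, 6.72 and 6.60 against 6.17, 6.16 and 6.42, a difference of 0.31 ± 0.12 (SE). MIR503, of the miR-16 related group that acts on cyclins, stood out only on knockdown replicate 2, at 5.69 beside 5.02 and 5.12, and 4.89 to 5.06 in the wild type. Without that array its difference of 0.32 was 0.11. MIR323B differed by 0.26 ± 0.18 (SE), and leaving out knockdown replicate 1, 2 or 3 gave 0.16, 0.13 or 0.50. MIR296 differed by 0.24 ± 0.11 (SE). MIR25, of the miR-106b-25 cluster in MCM7, gave 0.23 ± 0.15 (SE), with wild-type replicate 2 lowest at 5.38. Leaving out that array gave 0.06, and leaving out wild-type replicate 1 gave 0.37.

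The 8 genes above the reference with differences below 0 all had overlapping groups. MIR124-2, 1 of the loci of the neuronal microRNA miR-124, gave 5.11, 5.17 and 5.54 in the knockdown and 5.61, 5.64 and 5.43 in the wild type, a difference of -0.29 ± 0.13 (SE). MIR127, from the imprinted cluster at 14q32, gave 4.81, 5.15 and 4.77 against 4.95, 5.27 and 5.35, or -0.28 ± 0.14 (SE). The 95% confidence intervals of both reached just past 0, to 0.004 and 0.03. MIR211 differed by -0.13, or -0.005 without knockdown replicate 1 and -0.24 without knockdown replicate 2. MIR152 (-0.05), MIR7-3 (-0.03), MIR330 (-0.02) and MIR200B (-0.01) differed by less than their standard errors of 0.10 to 0.13.

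Several of the microRNA probe sets with the highest signals showed almost no difference. MIR210, which is induced by low oxygen, gave 6.99, 7.25 and 7.11 in the knockdown and 7.10, 7.17 and 7.08 in the wild type, with equal group means of 7.12 and a 95% confidence interval of -0.23 to 0.23 on the log2 difference. MIR139 gave 7.08, 7.52 and 7.14 against 7.21, 7.21 and 7.22, a difference of 0.03 ± 0.13 (SE). MIR339 and MIR99B each differed by 0.04, and MIR193A by 0.09. Without knockdown replicate 2, MIR139 gave -0.10, MIR339 -0.06 and MIR193A -0.04, and MIR99B gave -0.05 without knockdown replicate 1.

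Of the 26 genes whose groups did not overlap, 23 lay at or below the reference. They were 17% of the 135 microRNA genes there, beside 9.46% of all genes at or below the reference. MIRLET7G gave 2.90, 2.93 and 2.99 in the knockdown against 2.67, 2.46 and 2.53 in the wild type. Its difference of 0.39 ± 0.10 (SE) was between 0.34 and 0.45 with any 1 array left out. MIR30E gave 4.08, 3.86 and 3.81 against 3.35, 3.43 and 3.75, a difference of 0.41 ± 0.13 (SE). MIR191 gave 4.53, 4.76 and 4.74 against 4.38, 4.32 and 4.33, or 0.33 ± 0.10 (SE). MIR219A1, a microRNA of oligodendrocyte maturation, gave 4.81, 5.10 and 4.71 against 4.59, 4.36 and 4.63, or 0.35 ± 0.13 (SE). These 4 were higher on every knockdown array than on any wild-type array. MIR128-2, of a neuronal microRNA with 2 gene copies, differed by 0.36 ± 0.22 (SE), but this rested on knockdown replicate 2 at 3.98, and without it the value was 0.06 (0.55 without knockdown replicate 1).

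The other genes that lay higher without overlap were MIR142 of blood cells (0.29), MIR181B1 (0.29), MIR96 (0.26), the liver microRNA gene MIR122 (0.25), MIR188 (0.22), MIR106A (0.19), MIR95 (0.17), MIR153-1 (0.13), MIR30C1 (0.13), MIR29B1 (0.12), MIR100 (0.10), MIR222 (0.08) and MIR10A (0.06), all as log2 differences. These, like the 6 named next, were chosen because their groups did not overlap. The 6 that lay lower were MIR331 (-0.32), MIR323A (-0.30), MIR124-1 (-0.23), MIR16-1 (-0.22), the muscle microRNA gene MIR206 (-0.20) and MIR377 (-0.14). MIR331 gave 3.33, 3.21 and 3.17 in the knockdown and 3.67, 3.53 and 3.46 in the wild type. MIR323A was -0.19 without wild-type replicate 1, and MIR124-1 -0.15 without knockdown replicate 1. Also dim, with overlapping groups, were MIR32 at -0.33 ± 0.18 (SE) and MIR516B1 at -0.33 ± 0.18 (SE). Without wild-type replicate 2 these were -0.17 and -0.16, while MIR32 was -0.52 without knockdown replicate 3 and MIR516B1 -0.51 without wild-type replicate 1.

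**Figure D3:**
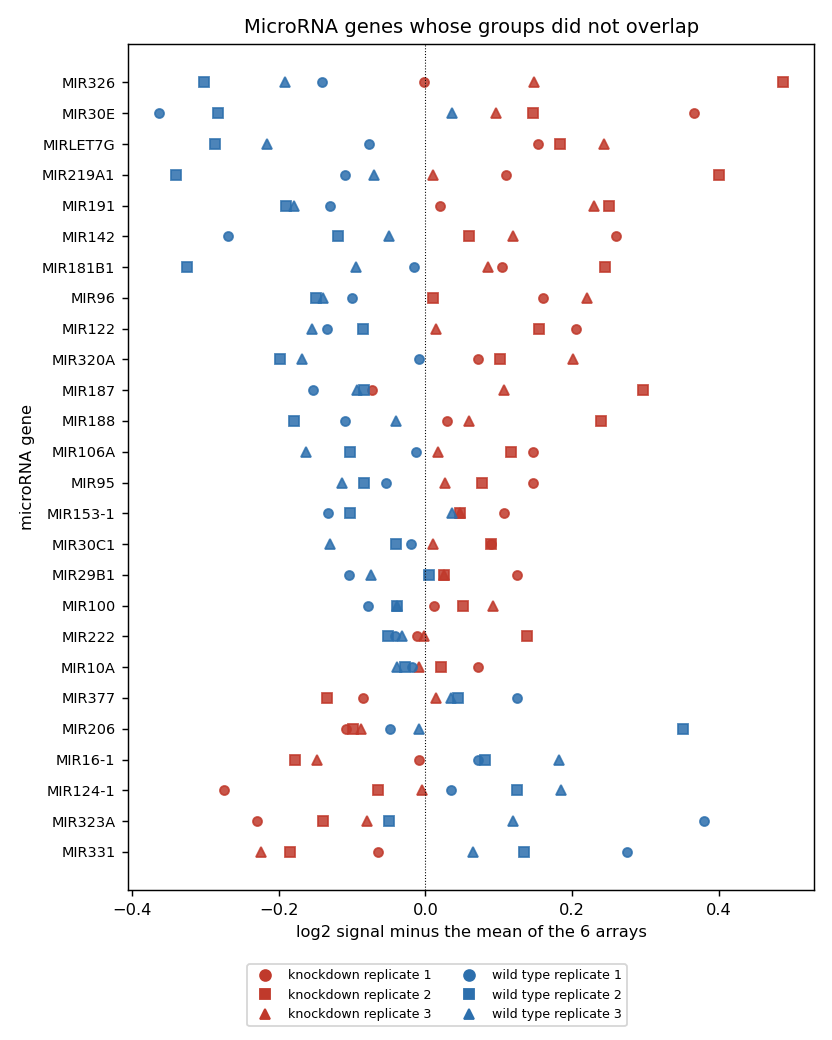
Log2 signal minus the gene's mean over the 6 arrays (horizontal axis) for the 26 microRNA genes whose groups did not overlap (vertical axis), with 1 symbol per array, knockdown in red and wild type in blue. The upper 20 genes lay higher in the knockdown and the lower 6 lay lower, and in several genes the gap between the groups is small, as for MIR187 and MIR10A.

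MicroRNAs for which P68 has been described to aid the Drosha cut, together with SMAD or p53 proteins, were looked at as a list. Of 7 genes in the SMAD list 3 were measured with a single symbol, and of 3 in the p53 list 1. All 4 of these lay at or below the reference. The hairpins of the 3 SMAD list genes are shown because each holds the letters CAGAC (in capitals), which have been described as the site that SMAD proteins bind.
MIR21: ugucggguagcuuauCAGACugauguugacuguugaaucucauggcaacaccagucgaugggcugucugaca
MIR199A1: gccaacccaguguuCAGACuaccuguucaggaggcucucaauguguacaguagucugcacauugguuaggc
MIR215: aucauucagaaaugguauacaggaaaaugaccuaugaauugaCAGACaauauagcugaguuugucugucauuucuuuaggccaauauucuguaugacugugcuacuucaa
They lie at chr17:59841266-59841337 on the plus strand (MIR21), chr19:10817426-10817496 on the minus strand (MIR199A1) and chr1:220117853-220117962 on the minus strand (MIR215).

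MIR21, the growth-promoting microRNA of many tumours, gave 4.16, 3.92 and 4.51 in the knockdown and 5.07, 4.02 and 3.67 in the wild type. Its difference of -0.06 ± 0.30 (SE) was far inside the spread of the wild-type arrays, and it was -0.35 when wild-type replicate 3 was left out and 0.35 when wild-type replicate 1 was. MIR199A1 gave 1.99, 2.19 and 2.28 against 2.26, 2.48 and 2.10, a difference of -0.13 ± 0.13 (SE). Without wild-type replicate 2 it was -0.03 and without knockdown replicate 1 -0.05. MIR215 gave 2.22, 2.04 and 2.19 against 2.32, 2.38 and 2.15, or -0.13 ± 0.11 (SE). Leaving out knockdown replicate 2 gave -0.08, and leaving out wild-type replicate 2 or 3 gave -0.09 or -0.20. MIR16-1, from the p53 list, gave 2.29, 2.12 and 2.15 against 2.37, 2.38 and 2.48, with no overlap. Its difference was -0.22 ± 0.10 (SE) and between -0.28 and -0.19 with any 1 array left out. All 4 measured genes had values below 0, as did 8563 of all 18417 genes, and all 4 signals were dim. Groups did not overlap for MIR16-1 alone, beside 4.15% of all genes that lay lower without overlap.

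The letters CAGAC were searched anywhere in the hairpin sequence as printed, not in its complement. They occurred in 8 of the 155 hairpins (5.16%) and in 7.88% of all 1560 RefSeq hairpins. The 8 genes were MIR21, MIR199A1, MIR215, MIR146A, MIR147A, MIR210, MIR429 and MIR7-3. Of these, 3 had a difference above 0, 4 below and 1 at 0, with a median of -0.015. Of the 147 hairpins without these letters, 105 were above 0, with a median of 0.06. Among the 4 below 0 were the SMAD list genes MIR21, MIR199A1 and MIR215, so this count repeats their values. The others were MIR146A (0.21), MIR429 (0.18), MIR147A (0.04), MIR210 (0) and MIR7-3 (-0.03). MIR146A, a brake on inflammatory signalling, gave the highest of the 8 at 0.21.

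The let-7 family, whose members restrain growth genes such as RAS and MYC, had values on both sides of 0. Of 10 measured genes with the let-7 seed, 7 had a difference above 0 and 3 below, with a median of 0.09. Apart from MIRLET7G, all had overlapping groups. Only MIRLET7I and MIRLET7D lay above the reference. MIRLET7I gave 6.22, 6.18 and 5.77 in the knockdown and 6.44, 5.62 and 5.36 in the wild type, and its difference of 0.25 ± 0.24 (SE) hung on single arrays. Leaving out wild-type replicate 1, 2 or 3 gave 0.57, 0.16 or 0.03, and leaving out knockdown replicate 3 gave 0.39. MIRLET7D gave 5.90, 5.45 and 5.49 against 5.79, 6.01 and 5.45, a difference of -0.14 ± 0.16 (SE). Leaving out wild-type replicate 2 gave -0.007, and leaving out wild-type replicate 3 gave -0.29.

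The remaining let-7 genes were dim. MIRLET7F2 differed by 0.17, MIRLET7F1 by 0.14, MIRLET7A1 by 0.13, MIR98 by 0.05, MIRLET7E by -0.06 and MIRLET7C by -0.17, with standard errors of 0.11 to 0.20. MIRLET7A2 differed by 0.003, and turned to -0.01 with arrays centred on their median. MIRLET7C turned to 0.02 without knockdown replicate 2, MIRLET7E to 0.05 without knockdown replicate 1 and MIR98 to -0.03 without wild-type replicate 3. Knockdown replicate 1 was the highest knockdown array for MIRLET7A1, MIRLET7A2, MIRLET7C, MIRLET7D, MIRLET7F1 and MIRLET7I, and without it the let-7 median was 0.03. Leaving out wild-type replicate 3 brought it to 0.

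**Figure D4:**
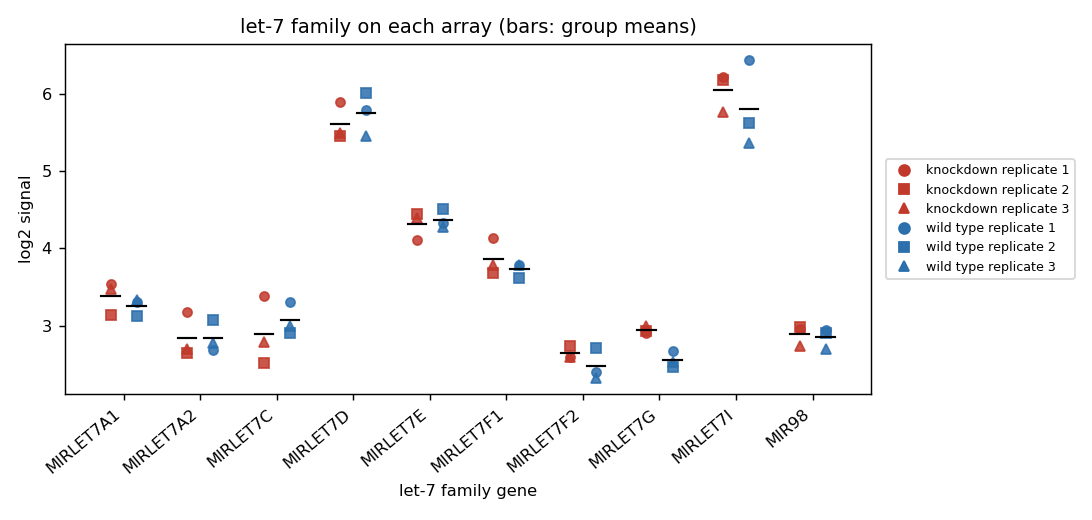
Log2 signal (vertical axis) of the 10 let-7 family genes (horizontal axis) on each array, with knockdown in red, wild type in blue and bars at the group means. MIRLET7G, at 2.90 to 2.99 against 2.46 to 2.67, is the gene whose groups do not overlap.

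Families that share another seed varied as well; the genes named in this paragraph and the next were picked after their values were seen. The 4 genes with the miR-30 seed and a sequence entry, MIR30A, MIR30C1, MIR30C2 and MIR30E, all had values above 0, from 0.03 to 0.41. MIR30C2, above the reference, gave 5.18, 5.35 and 5.15 in the knockdown and 5.16, 5.01 and 4.87 in the wild type, which overlapped by 0.01. The 5 genes with the miR-15 and miR-16 seed had a median of 0.04, and MIR16-1 was the only one below 0. The 5 with the miR-181 seed ran from -0.21 (MIR181A1) to 0.29 (MIR181B1), although these 2 genes lie next to each other. In all, 22 of 47 seeds shared by 2 or more measured genes with a sequence entry had every member on 1 side of 0. Both mature strands of a hairpin were counted, so some genes entered under several seeds.

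Among genes with a sequence entry, copies that give the same mature strand formed 18 groups, each of 2 genes. In 9 of these both lay on 1 side of 0. The copies of miR-124 had no entry and were not counted. All were below 0, with MIR124-1 at -0.23, MIR124-2 at -0.29 and MIR124-3 at -0.12. The MIR218-1 and MIR218-2 genes gave 0.20 and 0.19, whereas MIR16-1 and MIR16-2 gave -0.22 and 0.09. Neighbouring genes with a hairpin entry on 1 strand, with gaps of at most 10 kb on GRCh38.p14, formed 26 clusters with 65 genes. Within 10 of them every gene was above 0, and within none was every gene below 0. The cluster of MIR24-2, MIR27A and MIR23A varied least among those of 3 or more genes, from 0.03 to 0.07, and the 5 genes from MIR299 to MIR376C at 14q32 most, from -0.30 to 0.25. A cluster is usually cut from 1 primary transcript, and the probe sets of its hairpins gave differences on both sides of 0 in the other 16, apart from MIR216A (0) and MIR217 (-0.13).

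Lists by role gave medians near those of all microRNA genes. Of 29 microRNAs usually described as promoting glioma growth, 19 were measured, 15 with values above 0 and 3 below, with a median of 0.08. Groups did not overlap for 4 of the 19, all higher (5.98% of all genes): MIR30E, MIR96, MIR222 and MIR10A. MIR221, which acts with MIR222 against the cell cycle inhibitor p27, gave 4.31, 4.32 and 4.12 against 3.91, 4.11 and 4.16. Its groups overlapped. Of 43 usually described as restraining glioma, 33 were measured, 21 above 0 and 12 below, with a median of 0.06. Of the 33, the 3 genes MIR326, MIR181B1 and MIR29B1 lay higher without overlap (5.98% of all genes), and the 2 genes MIR124-1 and MIR16-1 lower (4.15% of all genes). The miR-17-92 related clusters had 6 measured genes, 3 on each side of 0 and a median of 0.06, the largest being MIR25.

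Clusters active in other cell types were mostly at background. Of 50 genes of the imprinted 14q32 cluster 16 were measured, 10 above 0 and 6 below, with a median of 0.03, and 3 of the 16 lay above the reference. MIR323A had the largest difference of these. From the primate cluster at 19q13, 2 of 46 were measured, MIR516B1 at -0.33 and MIR516B2 at 0.05, both at or below the reference. Of 9 stem cell microRNAs 2 were measured, MIR302A at -0.05 and MIR302B at 0.24, again at or below the reference. No miR-548 gene was measured with a single symbol.

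Host genes were set beside their microRNAs. In RefSeq, 51 microRNA genes lay inside a measured protein-coding gene on the same strand, with 44 different hosts. Both differences were on 1 side of 0 for 24 pairs and on opposite sides for 26. The differences of the pairs correlated with r = -0.11 across the 51 pairs, some of which share a host. The median was 0.06 for the microRNA genes and 0.01 for the hosts. MIRLET7G lies in WDR82, a subunit of a histone methyltransferase complex. WDR82 gave 6.36, 5.84 and 6.42 against 6.37, 6.45 and 6.49, a difference of -0.23 ± 0.15 (SE) set beside 0.39 for MIRLET7G. The WDR82 difference came mainly from knockdown replicate 2 (5.84), as all other arrays lay between 6.36 and 6.49. MIR30E and MIR30C1 lie in NFYC, a subunit of the CCAAT-binding factor NF-Y, which differed by 0.01 ± 0.12 (SE).

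MIR185 lies in TANGO2, which gave 0.13 ± 0.09 (SE), and MIR191 in DALRD3, which gave 0.17 ± 0.11 (SE). Groups did not overlap for either (10.1% of all genes), though the nearest DALRD3 arrays were at 5.26 and 5.25. ARPP21, the host of MIR128-2, gave 0.05 ± 0.10 (SE). MIR25 and MIR106B lie in the same host, the replication helicase subunit MCM7, and themselves gave 0.23 and -0.15. MCM7 gave 0.24 ± 0.11 (SE) without overlap, its nearest arrays at 5.10 and 5.08. VMP1, the autophagy gene that holds MIR21, gave 7.48, 7.29 and 7.52 against 7.58, 7.71 and 7.55. Its values did not overlap either, and its difference was -0.18 ± 0.11 (SE). The hosts MCM7 and VMP1 are outside the 5 host pairs named by rule.

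**Figure D5:**
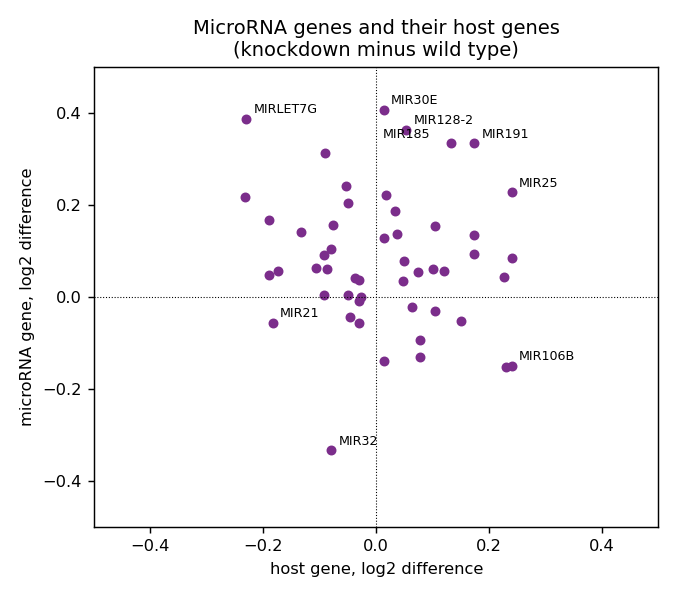
Log2 difference, knockdown minus wild type, of 51 microRNA genes (vertical axis) against that of the protein-coding gene that holds each of them on the same strand (horizontal axis). Points are pairs and lie on both sides of 0 on each axis (r = -0.11).

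The genes that make and use microRNAs leaned the other way. Of 33 such genes, fixed as a list that includes DDX5, 30 were measured, 7 with values above 0 and 23 below. Of all 18417 genes, 8563 lay below 0. The median was -0.10, and none passed the test over all genes. Groups did not overlap for 5 of them, 1 higher and 4 lower, or 16.7% beside 10.1% of all genes. The higher one was SMAD3. The 4 lower were NCBP1, ILF2, TUT7 and DDX5, the siRNA target itself. DROSHA gave -0.10 ± 0.16 (SE), DGCR8 -0.05 ± 0.10 and DICER1 -0.09 ± 0.16, all with overlapping groups. Knockdown replicate 2 was the lowest of the 6 arrays for DROSHA (5.18), DICER1 (5.44), NCBP1, XRN2, SMAD5, AGO4 and TUT7, among others. It was the highest for RAN and TARBP2. How far the lean of this list rests on that array was not tested. After DDX5, the lowest were TUT7, which adds uridines to precursor hairpins, at -0.38 ± 0.14 (SE), and the Argonaute gene AGO4 at -0.36 ± 0.24 (SE), both picked for their values. DDX17, the closest relative of DDX5, gave 8.63, 7.65 and 7.90 in the knockdown and 8.17, 7.80 and 7.80 in the wild type, with overlapping groups.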

How the data were processed

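The 6 arrays were 3 of P68 knockdown and 3 of P68 wild type. The deposited table holds log2 signals made with RMA, per the submitters' processing notes. The sources used here name no software version. RMA brings the arrays to 1 common distribution, which removes any shift in most genes at once. Detection calls and other scanner output were not used here, and the number of arrays limits the precision.

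Of 29096 probe sets, 19460 had 1 gene symbol in the platform annotation, 1754 several and 7882 none. Genes with more than 1 probe set were represented by the one of highest mean signal. All 18417 genes were fitted with limma 3.58.1 in R 4.3.3 (lmFit and eBayes, two-sided, group as the only term, no filter) and adjusted by Benjamini-Hochberg at 0.05. The fit was tested on simulated data. Confidence intervals are at 95%.

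Named were DDX5, the largest differences above (10 each way) and below (5 each way) the olfactory receptor reference, the 10 highest signals, members of the P68 and let-7 lists, the largest difference of each other list and 5 host pairs. The members and lists were chosen with earlier results of these data known. MicroRNA sequences, hosts and neighbours came from RefSeq (GRCh38.p14); other positions are not given. No 2 arrays were copies (SD of differences 0.22 at least). The replicate numbers were not taken as pairs: deviations of same-numbered arrays correlated at 0.27, -0.03 and 0.13. Alternatives were array centring, cyclic loess, repeated quantile normalisation, leaving out the dimmest 40%, averaging probe sets per gene, leaving out each array in turn, a threshold of 0.01, a replicate block, an intensity trend and array weights.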

Additional observations from a re-analysis of the deposited data

How the results depend on the processing

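No microRNA gene passed the threshold under any alternative run, with a smallest adjusted p of 0.661, and with a replicate block 0 genes were called. The block left the other values as they were, since each replicate number occurs once in each group. The median over the microRNA genes stayed above 0 in every alternative, from 0.033 with centred arrays to 0.085 with the dimmest 40% left out. With those left out, 54 microRNA genes remained, 7 of them higher and 0 lower without overlap (6.22% and 4.31% of the genes kept); fewer genes were tested there. Leaving out 1 array gave 25 to 34 higher and 8 to 15 lower, since fewer arrays overlap less often (9.55% to 13.2% and 7.22% to 10.6% of all genes).

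Of 47 named genes, some turned sign. MIRLET7A2 (0.003) gave -0.01 with centred arrays, cyclic loess (-0.0105) and repeated quantile normalisation (-0.0106), and -0.051 with array weights. Array weights also turned MIR7-3 to 0.0234, MIR139 to -0.0068 and MIR21 to 0.20; the cause was not tested. With single arrays left out, values ran from -0.162 to 0.0083 for MIR152, -0.11 to 0.08 for MIR7-3, -0.0567 to 0.0083 for MIR330, -0.107 to 0.0833 for MIR200B, -0.10 to 0.12 for MIR139, -0.0633 to 0.0917 for MIR339, -0.05 to 0.08 for MIR99B, -0.04 to 0.18 for MIR193A, -0.35 to 0.35 for MIR21, -0.17 to 0.12 for MIRLET7A2, -0.412 to 0.0183 for MIRLET7C, -0.123 to 0.0467 for MIRLET7E and -0.0267 to 0.123 for MIR98.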
